A study of Homo sapiens with 183 samples.

Results

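The simple epithelial keratins described here are 7 genes, KRT7, KRT8, KRT18, KRT19, KRT20, KRT23 and KRT80, chosen by name and not by any measured value, out of 19875 genes quantified in 183 RNA-seq libraries. Earlier results of these data were known when the members were chosen. All 7 were present in each of the 8 deposited tables. Their levels were taken in 9 human cancer cell lines and 59 groups, and 65 comparisons were made. The study asked how the transcription factor KLF5 and the paired AAA+ ATPases RUVBL1 and RUVBL2 set epithelial identity in pancreatic ductal adenocarcinoma (PDAC), the common form of pancreatic cancer.

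Simple keratins form the intermediate filament network of single-layered epithelia such as pancreatic ducts, gut and bile ducts. Filaments assemble from pairs of 1 type I and 1 type II keratin, so the members fall into 2 roles. KRT7, KRT8 and KRT80 are type II, and KRT18, KRT19, KRT20 and KRT23 are type I. KRT8 with KRT18 is the founding pair of simple epithelium, KRT19 marks ducts and is a standard ductal marker in pancreatic cancer, KRT7 is the ductal partner used in pathology beside KRT20, the keratin of the intestinal lining, and KRT23 and KRT80 are less studied members that differ in structure and tissue range from the classical pairs.

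By the annotation of the human genome build hg38 (GENCODE v44), the type II genes and KRT18 lie together on chromosome 12, KRT80 at chr12:52168996-52192014 on the minus strand, KRT7 at chr12:52232520-52252186 on the plus strand, KRT8 at chr12:52897187-52949954 on the minus strand and KRT18 at chr12:52948871-52952906 on the plus strand. The other type I genes lie on the minus strand of chromosome 17, KRT20 at chr17:40875889-40885242, KRT23 at chr17:40922700-40937646 and KRT19 at chr17:41523617-41528308. The annotated spans of KRT8 and KRT18 overlap on opposite strands, and KRT8, KRT18 and KRT19 have near-identical processed pseudogenes elsewhere in the genome, so their levels are uncertain by whatever the transcript assignment shared with those copies.

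KRT20 had the widest gap of any member between the colorectal line and the pancreatic lines, and its promoter window is shown for that reason, from 250 bases before to 50 bases after the annotated start in RefSeq (build GRCh38.p14, minus strand, chr17:40885193-40885492). Capitals mark matches on either strand to CCNCNCCC, the letters of the KLF and Sp family, and to TTTAT, the core letters of the intestinal CDX family. The RefSeq table held windows for 2 of the 7 members.
KRT20: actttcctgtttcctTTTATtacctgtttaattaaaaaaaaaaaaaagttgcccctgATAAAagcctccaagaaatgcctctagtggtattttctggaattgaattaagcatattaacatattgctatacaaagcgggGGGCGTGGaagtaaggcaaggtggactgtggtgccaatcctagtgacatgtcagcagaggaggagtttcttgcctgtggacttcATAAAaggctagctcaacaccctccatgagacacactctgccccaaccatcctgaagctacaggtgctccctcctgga
The window held 1 match to CCNCNCCC, which starts 112 bases before the gene start, and 3 matches to TTTAT. Of 35116 promoter windows of the same length, 56.2% held CCNCNCCC and 34.9% held TTTAT, so either match alone is common, and a match is a description of letters only.

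The groups were of 3 kinds. In the knockout experiments, 5 PDAC lines expressing Cas9 received sgRNAs from a puromycin-selected lentiviral vector, and RNA was taken on day 5. AsPC-1 and SUIT-2 are classical lines, and T3M-4 and BxPC-3 are basal-like. The sgRNAs targeted KLF5, RUVBL1, RUVBL2, CHD4 or SERPINB5, or CDK1 or RPA3 (labelled sgRpa3) as genes that any dividing cell needs, and sgRosa, which cuts the ROSA26 locus, was the control. The study used different sgRNAs against each of KLF5, RUVBL1, RUVBL2 and ROSA26, and the labels did not say which sgRNA each library carried. In the inhibitor experiments in AsPC-1 and T3M-4, cells carried an empty vector (EV), RUVBL1 A62T or RUVBL2 dF109 from lentivirus under G418 selection, and were exposed for 24 h to CB-6644, an allosteric inhibitor of the RUVBL1/2 ATPase, or to the solvent DMSO. Each of the 3 genotypes had 1 DMSO library, so the 3 were pooled as the control of a line. Last, parental T84 (colorectal carcinoma), A375 (melanoma), H1048 (small-cell lung cancer of tuft-cell type) and RH30 (rhabdomyosarcoma) received CB-6644 or DMSO for 24 h. Experiments of one line are numbered as the first number of the replicate label.

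Values are transcripts per 1000000 transcripts (TPM), a level that is scaled for transcript length and to the same total in every library, so the sequencing depth behind a value is unknown. Log2 fold changes are differences of mean log2(TPM + 1) with their standard error (SE), a scale that understates changes of members near or under 1 TPM. They were tested with limma, adjusted p is by Benjamini-Hochberg over all genes tested in that comparison, and a member was called where adjusted p was under 0.05. A member entered a test where its mean in that fit was at least 1 TPM. Nothing in the labels says that replicates came from separate cultures on separate days, so p-values measure the spread between these libraries. That spread may be technical, and in knockout groups it may also hold differences between sgRNAs. In bulk RNA a lower keratin level can come from fewer keratin-rich cells or from less keratin RNA per cell, and these cannot be told apart here.

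The labels and libraries were checked before the comparisons. RUVBL1 mRNA was lower in every sgRUVBL1 group and RUVBL2 mRNA in every sgRUVBL2 group than in the matched controls, and SERPINB5 mRNA fell in sgSERPINB5. Mean KLF5 mRNA was higher than sgRosa in 5 of 8 sgKLF5 comparisons and CHD4 mRNA overlapped its controls, so mRNA does not check those labels. In CFPAC-1, CDK1 in the libraries labelled sgCDK1 (194 to 207 TPM) overlapped sgRosa (206 to 236 TPM). RPA3 mRNA in the sgRpa3 groups, and CDK1 mRNA in the sgCDK1 groups of other lines, are not given here as a check of those labels. Libraries correlated with their own group at a median r of 0.929 to 0.998 across all genes, with 10 of 183 under 0.98. In their deviations from the mean of their experiment, 25 of 183 libraries followed another group more than their own, all 4 CFPAC-1 sgRosa libraries among them. Of these 4, replicate 2 followed sgKLF5 (r = 0.51, and -0.04 with the other sgRosa libraries), with SERPINB5 at 59.8 TPM beside 169 to 193 in the other 3 and 57.6 to 69.3 in sgKLF5. It is called the library labelled sgRosa replicate 2 below. With it, 4 further libraries stood apart (T3M-4 sgKLF5 replicate 2 of experiment 1, SUIT-2 sgRosa replicate 1 and sgKLF5 replicate 4, AsPC-1 sgRUVBL2 replicate 2 of experiment 3), and results that rest on them are given with and without them. The 7 epithelial markers all reached 1 TPM in the 5 pancreatic lines, T84 and H1048, and 3 of 7 did so in A375 and RH30. KRT8, KRT18 and KRT19 are among these markers, and KRT8 and KRT18 are counted in A375 and RH30. This check is therefore not independent of the members described here. Over the controls, 5 muscle markers summed to 1759 to 1884 TPM in RH30 and at most 2.43 elsewhere, 5 tuft markers to 803 to 864 in H1048 and at most 118 elsewhere, and 5 melanocyte markers to 251 to 257 in A375, where TYR was at 0, and at most 31.7 elsewhere. The 5 intestinal markers summed to 645 to 679 TPM in T84, which AsPC-1 (112 to 648) overlapped. How many markers reached 1 TPM does not set these lines apart, since 4 of 5 tuft markers did so in H1048 and also in T84, BxPC-3 and T3M-4.

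In control libraries the 7 keratins together made up a large share of the mRNA of every epithelial line. Their summed level was 1.89% of the library in T84, 1.61% in AsPC-1, 1.5% in SUIT-2, 1.4% in CFPAC-1, 1.25% in BxPC-3 and 0.706% in T3M-4. H1048 followed with 0.173%, A375 with 0.0864% and RH30 with 0.0185%. T84 lay above the other lines without overlap, AsPC-1 overlapped SUIT-2, SUIT-2 overlapped CFPAC-1 and CFPAC-1 overlapped BxPC-3, and each of the last 4 lines lay below the one before it without overlap. CFPAC-1, with a median of 1.51%, reached BxPC-3 (at most 1.42%) only with the library labelled sgRosa replicate 2, at 1.04%. The CFPAC-1 means and SDs of control levels, here and below, keep that library. Tables of different lines were made separately, so these orders are descriptions with no test.

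KRT8, a type II member, was highest in T84 (9539 ± 481 TPM, mean ± SD, n = 4) and was 7739 ± 437 TPM in AsPC-1 (n = 17), 6109 ± 1284 in SUIT-2 (n = 4), 5389.6 ± 868 in CFPAC-1 (n = 4), 3483 ± 804 in BxPC-3 (n = 6) and 1399.8 ± 332 in T3M-4 (n = 9). Its partner KRT18 stood at 6905 ± 281 TPM in T84, 5342 ± 626 in SUIT-2, 4959.7 ± 374 in AsPC-1, 3359 ± 572 in CFPAC-1, 2885 ± 698 in BxPC-3 and 862 ± 173 in T3M-4. H1048 held both at 502 ± 10.3 and 629.8 ± 28.3 TPM. The melanoma line A375 had far more KRT18 (627 ± 39.5 TPM) than KRT8 (62.7 ± 2.31 TPM), and RH30 had little of either (2.42 ± 1.17 and 3.28 ± 1.85 TPM).

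KRT19, the ductal keratin, was 4072 ± 819 TPM in CFPAC-1, 3347 ± 241 in AsPC-1, 3260.1 ± 249 in T3M-4, 2695 ± 201 in SUIT-2 and 2305 ± 177 in BxPC-3. Neighbouring lines in that order overlapped except T3M-4 and SUIT-2. CFPAC-1 overlapped AsPC-1 (at most 3706 TPM) only with the library labelled sgRosa replicate 2, at 2855 TPM. The other CFPAC-1 controls held 4379 to 4638 TPM. T84 held less (1336 ± 90.2 TPM), and H1048, A375 and RH30 were at 1.02 ± 0.19, 0.128 ± 0.107 and 0.106 ± 0.121 TPM. T3M-4 was the only pancreatic line whose mean KRT19 exceeded its mean KRT8.

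KRT7 spread the most among the pancreatic lines. BxPC-3 held 3781 ± 351 TPM, T3M-4 1417 ± 339.7, CFPAC-1 1028 ± 166 and SUIT-2 807 ± 107, but AsPC-1 held 3.81 ± 1.23 TPM, below RH30 (9.42 ± 0.717 TPM) and every other line. H1048 had 592 ± 13.3 TPM, and T84 (19 ± 2.8) overlapped A375 (21.7 ± 2.12). KRT20 was 985 ± 45.9 TPM in T84, and the next line, CFPAC-1, had 6.75 ± 2.49 TPM. T3M-4 had 4.74 ± 3.36 TPM, and the remaining 6 lines had means under 1 TPM, with 0 in all 4 A375 libraries.

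KRT23 was 101 ± 92.3 TPM in T3M-4 and 54.1 ± 5.25 in T84, and CFPAC-1, AsPC-1, BxPC-3 and SUIT-2 overlapped one another at 20.1 ± 11.7, 17.9 ± 18.6, 13.6 ± 6.31 and 12.6 ± 5.28 TPM. The T3M-4 range (32.4 to 281 TPM) took in that of T84 (49.2 to 61.1 TPM). AsPC-1 (at most 73 TPM) overlapped both, and CFPAC-1 (at most 35.8 TPM) overlapped T3M-4. The control level of KRT23 moved between experiments of one line, from group means of 5.17 to 46.5 TPM in AsPC-1 and 34.5 to 214 TPM in T3M-4. KRT80 had another order and was highest in RH30 (169 ± 3.03 TPM) and A375 (152 ± 6.88 TPM), the lines with the least summed keratin, ahead of CFPAC-1 (115 ± 12.7), T84 (71.3 ± 3.29) and a group of overlapping lines from SUIT-2 (22.7 ± 7.83) to H1048 (6.38 ± 0.886).

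**Figure D1:**
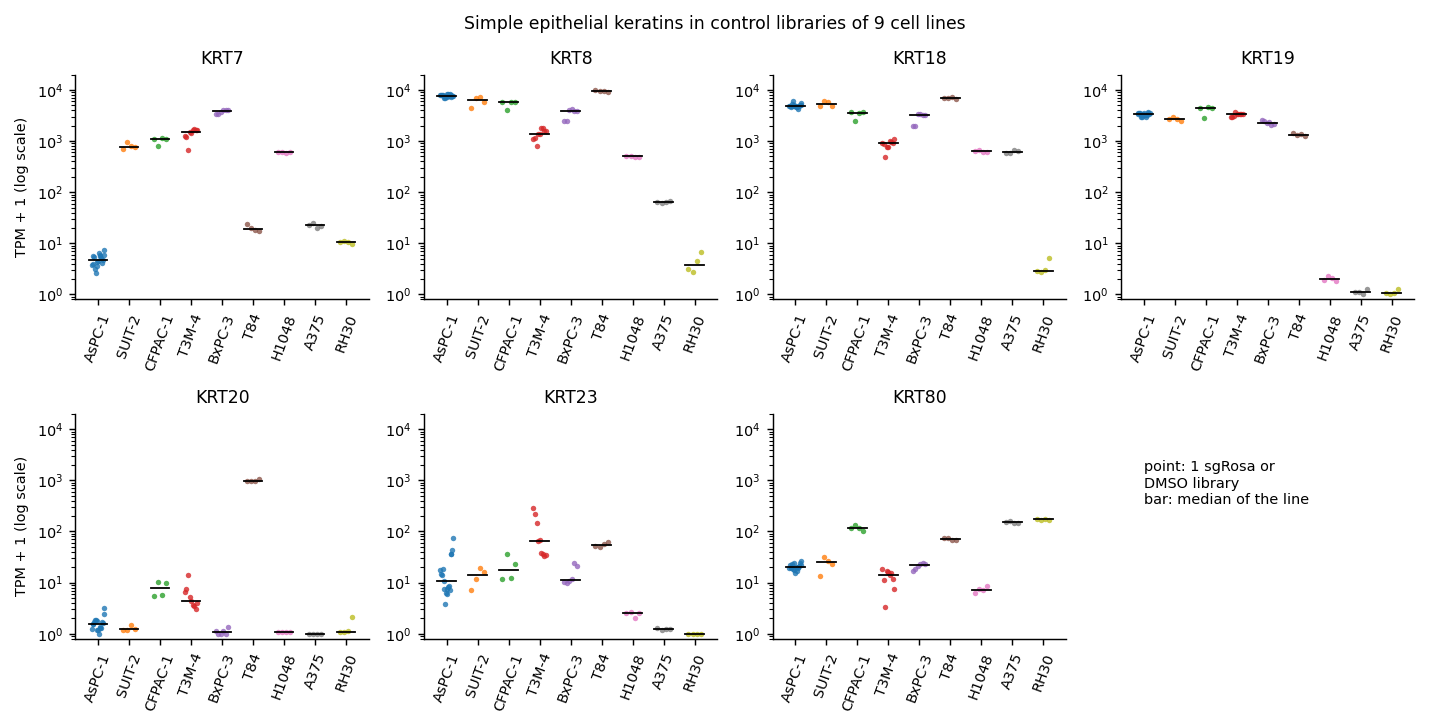
Level of each simple keratin in the control libraries (sgRosa or DMSO) of 9 cell lines, in 1 panel per keratin, as TPM + 1 on a log axis, with 1 point per library and a bar at the median of the line. KRT20 is high only in T84 among these 9 lines, KRT19 is near 0 TPM in H1048, A375 and RH30, and KRT7 is lower in AsPC-1 than in the other 4 pancreatic lines.

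After KLF5 knockout the members did not move as one block. In the 8 comparisons with sgRosa, KRT23 rose in 8 and KRT80 in 6, KRT19 fell in 5 and KRT8 in 4, KRT18 rose in 1 and fell in 3, KRT7 rose in 4 and fell in 1, and KRT20 fell in 1 of the 4 in which it could be tested. In all, 33 of 52 tests were called, 19 higher and 14 lower. The calls per comparison, beside the share of all genes called, were 4 of 6 members (25.9% of genes) in AsPC-1 experiment 1, 3 of 7 (27.8%) in experiment 3, 3 of 6 (3.94%) in SUIT-2, 5 of 7 (16.2%) in CFPAC-1, 3 of 7 (5.72%) and 7 of 7 (34.6%) in T3M-4 experiments 1 and 2, and 3 of 6 (16.2%) and 5 of 6 (34.6%) in BxPC-3 experiments 1 and 2. Median log2 fold changes of the members ran from -0.69 in T3M-4 experiment 2 (all genes 0.10) to 0.79 in AsPC-1 experiment 1 (all genes 0.08).

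KRT23, a type I keratin, rose in every line. In AsPC-1 experiment 1 the 2 sgRosa libraries held 5.39 and 4.96 TPM and the 6 sgKLF5 libraries had a lowest of 47.5, a median of 53.7 and a highest of 60.2 (log2 fold change 3.16, SE 0.10, adjusted p = 2.31e-08). In experiment 3 of the same line sgRosa started higher, at 34.8, 34.8, 43.4 and 73 TPM, and sgKLF5 reached 112, 115, 100.1 and 104 (log2 fold change 1.26, SE 0.35, adjusted p = 0.00976). The groups did not overlap in either experiment. SUIT-2 went from 6.06, 10.9, 18.1 and 15.4 TPM to 109, 109, 93.9 and 92.9 (log2 fold change 3.0, SE 0.29, adjusted p = 0.000687). In BxPC-3, sgRosa held 9.14 and 8.84 TPM and sgKLF5 57.8, 63.6, 67.2 and 61.2 in experiment 1 (log2 fold change 2.66, SE 0.10, adjusted p = 4.12e-07). Experiment 2 of that line gave 9.94, 10.6, 23.4 and 19.8 against 66.1, 75, 83.1 and 81.6 (log2 fold change 2.28, SE 0.19, adjusted p = 9.26e-08). Every sgKLF5 library of SUIT-2 and BxPC-3 lay above every control. T3M-4 rose from 63.3 and 67.2 TPM to 214, 163, 222 and 216 in experiment 1 (log2 fold change 1.62, SE 0.17, adjusted p = 0.00213), a call lost without sgRosa replicate 1 (log2 fold change 1.58, adjusted p 0.0533) and kept without sgKLF5 replicate 2 (log2 fold change 1.72, SE 0.09, adjusted p = 1.33e-06). Experiment 2 of T3M-4 gave 36.9, 35.6, 32.4 and 33.1 against 211, 202, 188 and 191 (log2 fold change 2.49, SE 0.18, adjusted p = 7.81e-09), again without overlap.

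In CFPAC-1, KRT23 was 10.9, 35.8, 11.3 and 22.2 TPM in the libraries labelled sgRosa and 42.7, 39.7 and 36.6 in sgKLF5 (log2 fold change 1.11, SE 0.28, adjusted p = 0.0166). The groups did not overlap, and the highest of the former, 35.8 TPM, was the library labelled sgRosa replicate 2. Without it the change was log2 fold change 1.43, SE 0.20, adjusted p = 0.000101. With that library kept, the call was lost without sgKLF5 replicate 1 or 2 or sgRosa replicate 1 or 3 (log2 fold change 0.89 to 1.11, adjusted p 0.0537 to 0.0673). In SUIT-2, without the 2 libraries that stood apart, the log2 fold change was 2.75 for KRT23, 1.1 for KRT80 and -1.15 for KRT19, and the share of genes called rose from 3.94% to 11.7%. In T3M-4 experiment 1 it rose from 5.72% to 37.0% without sgKLF5 replicate 2.

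KRT80, a type II keratin, rose beside KRT23 in 4 of the 5 lines. In BxPC-3 experiment 1 it was 16.2 and 17.4 TPM in sgRosa and 75.3, 71.2, 52.4 and 62.2 in sgKLF5 (log2 fold change 1.88, SE 0.15, adjusted p = 1.79e-05), and in experiment 2 19.9, 21.6, 23 and 21.8 against 51.9, 52.4, 47.5 and 47.6 (log2 fold change 1.17, SE 0.14, adjusted p = 3.71e-06). T3M-4 experiment 2 gave 12.9, 14.4, 11 and 6.35 against 42.7, 39.4, 33.9 and 32.6 (log2 fold change 1.70, SE 0.19, adjusted p = 2.05e-06). These 3 comparisons showed no overlap. AsPC-1 rose from 16.5 and 14.7 TPM to a lowest of 29.9, a median of 41.7 and a highest of 51.6 in experiment 1 (log2 fold change 1.31, SE 0.18, adjusted p = 0.000447). In experiment 3 it rose from 20.5, 22.9, 25.8 and 21.2 to 33.3, 39.2, 36.6 and 25.8 (log2 fold change 0.55, SE 0.13, adjusted p = 0.00415), where the lowest sgKLF5 library equalled the highest control to 3 digits. SUIT-2 went from 12.2, 31, 25 and 22.6 to 67.8, 49.1, 54.8 and 60.2 (log2 fold change 1.38, SE 0.26, adjusted p = 0.0206), a call lost without sgKLF5 replicate 1, 2, 3 or 4 or sgRosa replicate 4 (log2 fold change 1.3 to 1.45, adjusted p 0.0504 to 0.0952). In T3M-4 experiment 1 the 4 sgKLF5 libraries held 44.7, 19.7, 48.3 and 47 TPM against 15.6 and 14.9, which did not pass (log2 fold change 1.25, SE 0.38, adjusted p = 0.103), and replicate 2, the lowest, is the library that stood apart. Without it the change was log2 fold change 1.55, SE 0.17, adjusted p = 0.000163. CFPAC-1 gave no call (log2 fold change -0.13, SE 0.13, adjusted p = 0.491).

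KRT19 moved the other way. SUIT-2 fell from 2719, 2908, 2728 and 2423 TPM to 1197, 1244, 1169.9 and 1439.5 (log2 fold change -1.09, SE 0.10, adjusted p = 0.000624). BxPC-3 fell from 2537 and 2476 to 1170.0, 1092, 1404 and 1239 in experiment 1 (log2 fold change -1.04, SE 0.10, adjusted p = 5.41e-05) and from 2223, 2342, 2099 and 2153 to 1501, 1456, 1565 and 1554 in experiment 2 (log2 fold change -0.54, SE 0.07, adjusted p = 1.49e-05). No sgKLF5 library of those comparisons reached its controls. T3M-4 experiment 2 fell from 3309, 3406, 3320.1 and 3307 to 2027, 2083, 2062 and 2124 (log2 fold change -0.69, SE 0.09, adjusted p = 1.47e-05), also without overlap. In CFPAC-1 the libraries labelled sgRosa held 4379, 2855, 4638 and 4415 TPM and sgKLF5 3072, 2738 and 2945 (log2 fold change -0.46, SE 0.12, adjusted p = 0.0219), with replicate 2 of the former among the sgKLF5 values. Without that library the fall was larger (log2 fold change -0.62, SE 0.07, adjusted p = 5.91e-06), and with it the call was lost without sgKLF5 replicate 1, 2 or 3 or sgRosa replicate 1 or 3 (log2 fold change -0.49 to -0.39, adjusted p 0.0544 to 0.0869). T3M-4 experiment 1 did not pass (log2 fold change -0.46, SE 0.20, adjusted p = 0.194) until replicate 2 of sgKLF5 was left out (log2 fold change -0.60, SE 0.09, adjusted p = 0.00138). AsPC-1 did not pass in either experiment, at log2 fold changes of -0.06 (SE 0.08) and -0.15 (SE 0.11).

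The KRT8 and KRT18 pair fell together in T3M-4 experiment 2, CFPAC-1 and BxPC-3 experiment 2, and neither fell in AsPC-1. In T3M-4 experiment 2, KRT8 was 1763, 1824, 1607 and 1537 TPM in sgRosa and 822, 838, 909 and 859.9 in sgKLF5 (log2 fold change -0.97, SE 0.07, adjusted p = 3.05e-09), and KRT18 was 1013, 949.6, 911 and 1085 against 577, 604, 619 and 615 (log2 fold change -0.71, SE 0.08, adjusted p = 3.82e-06). BxPC-3 experiment 2 gave 4011, 4293, 3821 and 3834 against 2725, 2628, 2849 and 2898 for KRT8 (log2 fold change -0.52, SE 0.06, adjusted p = 5.77e-06) and 3421, 3375, 3291 and 3249.8 against 2755, 2673, 2832 and 2832 for KRT18 (log2 fold change -0.27, SE 0.06, adjusted p = 0.00126). Neither gene overlapped between groups in these comparisons. In BxPC-3 experiment 1 neither passed (KRT8 -0.11, SE 0.07; KRT18 0.09, SE 0.07). In that experiment the summed level of 5 fibroblast markers was 68.4 to 112 TPM in sgKLF5 and 18.7 to 20.5 TPM in sgRosa, and its part in the result was not tested. T3M-4 experiment 1 dropped in KRT8 from 1398 and 1396 TPM to 803, 925, 838 and 823 (log2 fold change -0.72, SE 0.11, adjusted p = 0.0109; -0.77 without sgKLF5 replicate 2), a call lost without sgKLF5 replicate 1 or sgRosa replicate 1 or 2 (log2 fold change -0.72 to -0.70, adjusted p 0.0534 to 0.184). Its KRT18 did not pass (log2 fold change -0.42, SE 0.20, adjusted p = 0.227), where replicate 2 of sgKLF5 held 778 TPM beside 504 to 524 in the other 3, and did without that library (log2 fold change -0.57, SE 0.09, adjusted p = 0.00191).

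In CFPAC-1 the libraries labelled sgRosa held 5781, 4090.4, 5892 and 5795 TPM of KRT8 and sgKLF5 4100.5, 3863 and 4078 (log2 fold change -0.41, SE 0.09, adjusted p = 0.0108), and without the library labelled sgRosa replicate 2, which lay among the sgKLF5 values, the log2 fold change was -0.54. The KRT8 call was lost without sgKLF5 replicate 2 (log2 fold change -0.38, adjusted p 0.0502). KRT18 was 3618, 2516, 3521 and 3780.4 against 2635, 2578 and 2602 (log2 fold change -0.35, SE 0.10, adjusted p = 0.0251; -0.48 without the same library), and lost its call without sgKLF5 replicate 1, 2 or 3 or sgRosa replicate 1 or 3 (log2 fold change -0.36 to -0.31, adjusted p 0.069 to 0.0814). SUIT-2 gave KRT8 4387, 7013, 7162 and 5872 against 4109, 4145, 4118 and 5154, which did not pass with all 8 libraries (log2 fold change -0.46, SE 0.16, adjusted p = 0.183) and did without the 2 that stood apart (log2 fold change -0.69, SE 0.09, adjusted p = 0.00333). In AsPC-1 experiment 1, KRT18 rose from 4995 and 4888 TPM to a lowest of 5391, a median of 6072 and a highest of 6792 (log2 fold change 0.28, SE 0.08, adjusted p = 0.0217), a call lost without sgRosa replicate 1 or 2 (log2 fold change 0.27 to 0.30, adjusted p 0.0917 to 0.15), and KRT8 did not pass in either AsPC-1 experiment (log2 fold change 0.17 and 0.08). KRT18 in experiment 3 passed only without sgRUVBL2 replicate 2, which shares that fit (log2 fold change 0.21, SE 0.08, adjusted p = 0.0473).

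KRT7 rose where it was lowest and in T3M-4. AsPC-1 went from 3.32 and 3.4 TPM to a lowest of 8.52, a median of 10.4 and a highest of 19.5 in experiment 1 (log2 fold change 1.48, SE 0.24, adjusted p = 0.00135) and from 3.03, 3.78, 4.86 and 6.25 to 10.9, 11.3, 9.39 and 8.28 in experiment 3 (log2 fold change 1.03, SE 0.24, adjusted p = 0.00337). The highest library of experiment 1, sgKLF5 replicate 6, also held 60.5 TPM of KRT5, 44.9 of KRT14 and 37.1 of KRT6A, keratins of basal cells that stood at 1.37 TPM or less in the other 7, while TP63, the basal transcription factor, was 1.11 TPM in it and 0.923 to 1.15 in the others. Without that library KRT7 was called at 1.33, KRT18 at 0.28 (adjusted p = 0.0397), KRT23 at 3.16 and KRT80 at 1.32 on the log2 scale. T3M-4 experiment 2 rose from 1672, 1708, 1662 and 1661 to 2176, 2071, 1950.0 and 1966 (log2 fold change 0.28, SE 0.06, adjusted p = 0.00159). None of these groups overlapped. In T3M-4 experiment 1 it rose from 1499.8 and 1427 to 2899.7, 3768, 2519 and 2444 (log2 fold change 0.97, SE 0.18, adjusted p = 0.0222; 0.84 without sgKLF5 replicate 2), a call lost without sgKLF5 replicate 1 or sgRosa replicate 1 or 2 (log2 fold change 0.93 to 1.00, adjusted p 0.0782 to 0.257). BxPC-3, where KRT7 was most abundant, gave 0.02 (SE 0.06) and -0.03 (SE 0.07). CFPAC-1 fell from 1085, 782, 1145 and 1099 to 873, 760.5 and 765 (log2 fold change -0.35, SE 0.10, adjusted p = 0.0321; -0.48 without the library labelled sgRosa replicate 2), a call lost without sgKLF5 replicate 1, 2 or 3 or sgRosa replicate 1, 3 or 4 (log2 fold change -0.41 to -0.29, adjusted p 0.0504 to 0.113). SUIT-2 did not pass (log2 fold change 0.44, SE 0.12, adjusted p = 0.0873). KRT20 fell in T3M-4 experiment 2, from 2.61, 2.55, 2.07 and 3.07 TPM to 1.89, 0.898, 1.11 and 1.06 (log2 fold change -0.69, SE 0.19, adjusted p = 0.0104).

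**Figure D2:**
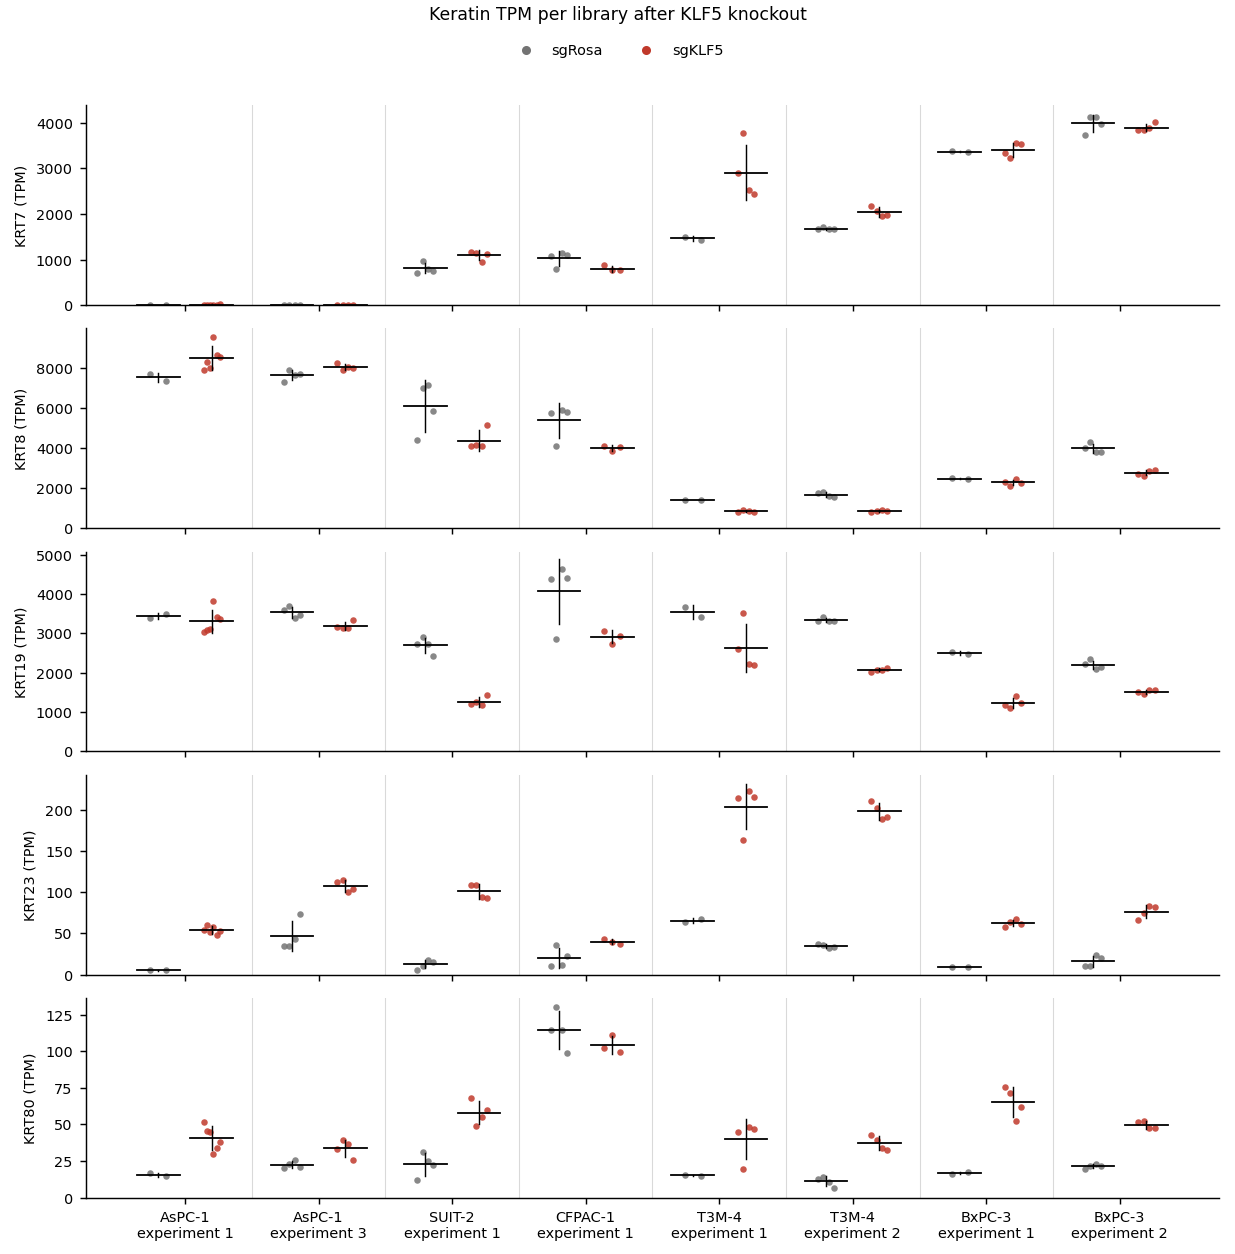
TPM of KRT7, KRT8, KRT19, KRT23 and KRT80 in sgRosa (grey) and sgKLF5 (red) libraries of the 5 pancreatic lines, by experiment, on linear axes from 0, with 1 point per library, a horizontal bar at the mean and a vertical bar of 1 SD either way. KRT23 passed the test as higher in all 8 comparisons, KRT80 as higher in 6, and KRT19 as lower in 5.

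Experiments of the same line were set against each other for the size of the change. Of 26 tests, 8 were called. In AsPC-1 the KLF5 change of KRT23 was smaller in experiment 3 than in experiment 1 (experiment 3 minus experiment 1 -1.90, SE 0.46, adjusted p = 0.0134; 4.28% of genes called), a call lost without experiment 1 sgRosa replicate 1 or 2 (log2 fold change -1.95 to -1.85, adjusted p 0.0539 to 0.112). The RUVBL1 change of KRT23 was more negative in experiment 3 than in experiment 2 (experiment 3 minus experiment 2 -2.81, SE 0.40, adjusted p = 4.69e-05; 18.2% of genes). The sgRosa level of KRT23 differed between these experiments as well, as given above. In BxPC-3, 4 of 6 members differed (16.7% of genes): experiment 2 minus experiment 1 was -0.42 for KRT8, -0.35 for KRT18, 0.50 for KRT19 and -0.71 for KRT80, the last lost without experiment 1 sgRosa replicate 1 or 2 (log2 fold change -0.76 to -0.66, adjusted p 0.0692 to 0.125). In T3M-4, 2 of 7 members differed (17.4% of genes). KRT7 rose less in experiment 2 (-0.69), lost without experiment 1 sgRosa replicate 2 (log2 fold change -0.65, adjusted p 0.0712), and KRT23 rose more (0.87), a call that leaving out 1 of 11 libraries, sgRosa or sgKLF5, ended (log2 0.83 to 0.91, adjusted p up to 0.16).

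Knockout of RUVBL1 or RUVBL2 lowered KRT19 in 7 of 9 comparisons, and it split KRT23 and KRT80 by line, with falls in AsPC-1 and rises in T3M-4. Over all members 30 of 60 tests were called, 8 higher and 22 lower. The calls were 6 of 6 (55.8% of genes) and 5 of 7 (51.9%) for RUVBL1 in AsPC-1 experiments 2 and 3, 4 of 7 (60.5%) in T3M-4, 2 of 6 (16.0%) in BxPC-3 and 1 of 7 (43.8%) in CFPAC-1. For RUVBL2 they were 5 of 7 (43.2%) in AsPC-1 experiment 3, 5 of 7 (54.5%) in T3M-4, 2 of 6 (9.76%) in BxPC-3 and 0 of 7 (12.1%) in CFPAC-1. RUVBL1 and RUVBL2 knockouts of one experiment share their sgRosa libraries, so their values stand side by side and are not independent.

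In AsPC-1 every abundant member fell. For RUVBL1 in experiment 2, KRT8 went from 8462, 8288, 7555 and 8382 TPM to 5673, 5679, 5367 and 5729.6 (log2 fold change -0.54, SE 0.04, adjusted p = 9.85e-08), KRT18 from 4633, 4713, 4328 and 4765 to 3066, 3053, 2714 and 2858 (log2 fold change -0.66, SE 0.05, adjusted p = 1.57e-08) and KRT19 from 3297, 3229, 2956 and 3271 to 2194, 2066, 1950.3 and 2094 (log2 fold change -0.62, SE 0.05, adjusted p = 5.33e-08). In experiment 3 the sgRosa libraries held 3597, 3706, 3392 and 3477 TPM of KRT19, sgRUVBL1 1719.7, 1751, 2429.7 and 2425 (log2 fold change -0.79, SE 0.11, adjusted p = 1.65e-05) and sgRUVBL2 2857, 1886, 2428 and 2487 (log2 fold change -0.57, SE 0.11, adjusted p = 0.000589). KRT8 and KRT18 fell too (log2 fold changes -0.62 and -0.71 in sgRUVBL1, -0.48 and -0.49 in sgRUVBL2). In all 3 comparisons no knockout library of KRT8, KRT18 or KRT19 reached the sgRosa range.

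KRT23 in AsPC-1 experiment 3 fell from 34.8, 34.8, 43.4 and 73 TPM to 1.48, 2.06, 8.12 and 8.49 in sgRUVBL1 (log2 fold change -3.16, SE 0.35, adjusted p = 1.07e-06) and 14.9, 12.9, 9.29 and 8.84 in sgRUVBL2 (log2 fold change -1.89, SE 0.35, adjusted p = 0.000307). In experiment 2, where sgRosa held 6.46, 7.02, 7.68 and 6.14 TPM, sgRUVBL1 held 5.15, 5.62, 5.28 and 4.56 (log2 fold change -0.35, SE 0.10, adjusted p = 0.00975). The knockout libraries were below the controls each time. KRT80 fell from 19.3, 16.1, 17.9 and 19.1 TPM to 12.3, 14.2, 13.9 and 11.9 in experiment 2 (log2 fold change -0.44, SE 0.12, adjusted p = 0.00433), and it fell in sgRUVBL1 and sgRUVBL2 of experiment 3 (log2 fold changes -0.60 and -0.47). Without sgRUVBL2 replicate 2, sgRUVBL2 of experiment 3 gave -0.42 for KRT8, -0.46 for KRT18, -0.45 for KRT19, -1.95 for KRT23 and -0.39 for KRT80, all called. KRT7, at under 6 TPM throughout experiment 2, was called lower there (log2 fold change -0.50, SE 0.18, adjusted p = 0.0236), a call lost without sgRUVBL1 replicate 2 or sgRosa replicate 1 (log2 fold change -0.44 to -0.27, adjusted p 0.0665 to 0.067). It was not called in experiment 3 (-0.41 and -0.30).

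In T3M-4 the same 2 genes rose. KRT23 went from 36.9, 35.6, 32.4 and 33.1 TPM to 91.7, 108 and 82.6 in sgRUVBL1 (log2 fold change 1.41, SE 0.20, adjusted p = 1.29e-05) and 155, 81.8, 78.3 and 164 in sgRUVBL2 (log2 fold change 1.68, SE 0.18, adjusted p = 8.77e-07). KRT80 rose from 12.9, 14.4, 11 and 6.35 to 40.4, 47.1 and 39.1 (log2 fold change 1.88, SE 0.21, adjusted p = 1.11e-06) and 22.4, 39.8, 36 and 28.3 (log2 fold change 1.44, SE 0.19, adjusted p = 8.25e-06). All knockout libraries lay above all controls for both genes. KRT19 fell from 3309, 3406, 3320.1 and 3307 to 2332, 2220.1 and 2447 in sgRUVBL1 (log2 fold change -0.52, SE 0.10, adjusted p = 0.000285) and to 3321, 2192, 2449 and 2915 in sgRUVBL2 (log2 fold change -0.31, SE 0.09, adjusted p = 0.00828), where replicate 1 lay within the control range. KRT7 rose in sgRUVBL2 (log2 fold change 0.29, SE 0.06, adjusted p = 0.000778). Its rise in sgRUVBL1 (log2 fold change 0.16, SE 0.07, adjusted p = 0.0398) was lost without sgRUVBL1 replicate 1, 2 or 3 or sgRosa replicate 1, 3 or 4 (log2 fold change 0.14 to 0.18, adjusted p 0.0562 to 0.127), and turned to -0.07 (adjusted p = 0.578) under median-of-ratios scaling. KRT8 fell in sgRUVBL2 (log2 fold change -0.19, SE 0.07, adjusted p = 0.0194; lost without sgRUVBL2 replicate 2 or sgRosa replicate 1 or 2, log2 fold change -0.17 to -0.15, adjusted p 0.058 to 0.0697) and did not pass in sgRUVBL1 (-0.12, SE 0.07). KRT8 overlapped its controls in both, and KRT18 and KRT20 passed in neither.

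BxPC-3 and CFPAC-1 gave 5 calls in 4 comparisons. In BxPC-3, KRT19 fell from 2223, 2342, 2099 and 2153 TPM to 1595, 1596, 1952 and 1770.5 in sgRUVBL1 (log2 fold change -0.35, SE 0.07, adjusted p = 0.00286) and 2073, 1669 and 1758 in sgRUVBL2 (log2 fold change -0.27, SE 0.08, adjusted p = 0.0348), the second lost without sgRUVBL2 replicate 2 or 3 or sgRosa replicate 1 or 2 (log2 fold change -0.27 to -0.21, adjusted p 0.0664 to 0.0942). KRT80 rose in sgRUVBL1 from 19.9, 21.6, 23 and 21.8 to 40.0, 33.6, 26.2 and 26.8 (log2 fold change 0.52, SE 0.14, adjusted p = 0.0163; lost without sgRUVBL1 replicate 1 or 2, log2 fold change 0.40 to 0.48, adjusted p 0.0545 to 0.0682). KRT23 rose in sgRUVBL2 from 9.94, 10.6, 23.4 and 19.8 to 28.6, 23.8 and 29 (log2 fold change 0.82, SE 0.21, adjusted p = 0.0223; lost without sgRUVBL2 replicate 3 or sgRosa replicate 1 or 2, log2 fold change 0.64 to 0.77, adjusted p 0.0526 to 0.0709). None of these groups overlapped. In CFPAC-1 the single call was KRT80 in sgRUVBL1, 114, 130.2, 115 and 99 TPM in the libraries labelled sgRosa against 56.7, 91.1, 70.3 and 86.8 (log2 fold change -0.60, SE 0.12, adjusted p = 0.000898; -0.54 without replicate 2 of the former). With sgRUVBL2 in that line limma called 0 members and 2 had an unadjusted p under 0.05 (KRT18 and KRT20), beside 3522 of 12748 genes. Without the library labelled sgRosa replicate 2, KRT20 was called (log2 fold change 0.85, SE 0.21, adjusted p = 0.0199), with 11.1 and 11.2 TPM in the 2 sgRUVBL2 libraries against 4.49, 9.12, 4.69 and 8.68 in all 4 labelled sgRosa. KRT19 was not called in CFPAC-1 (log2 fold change 0.19 in sgRUVBL1 and 0.22 in sgRUVBL2; 0.031 and 0.060 without that library).

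**Figure D3:**
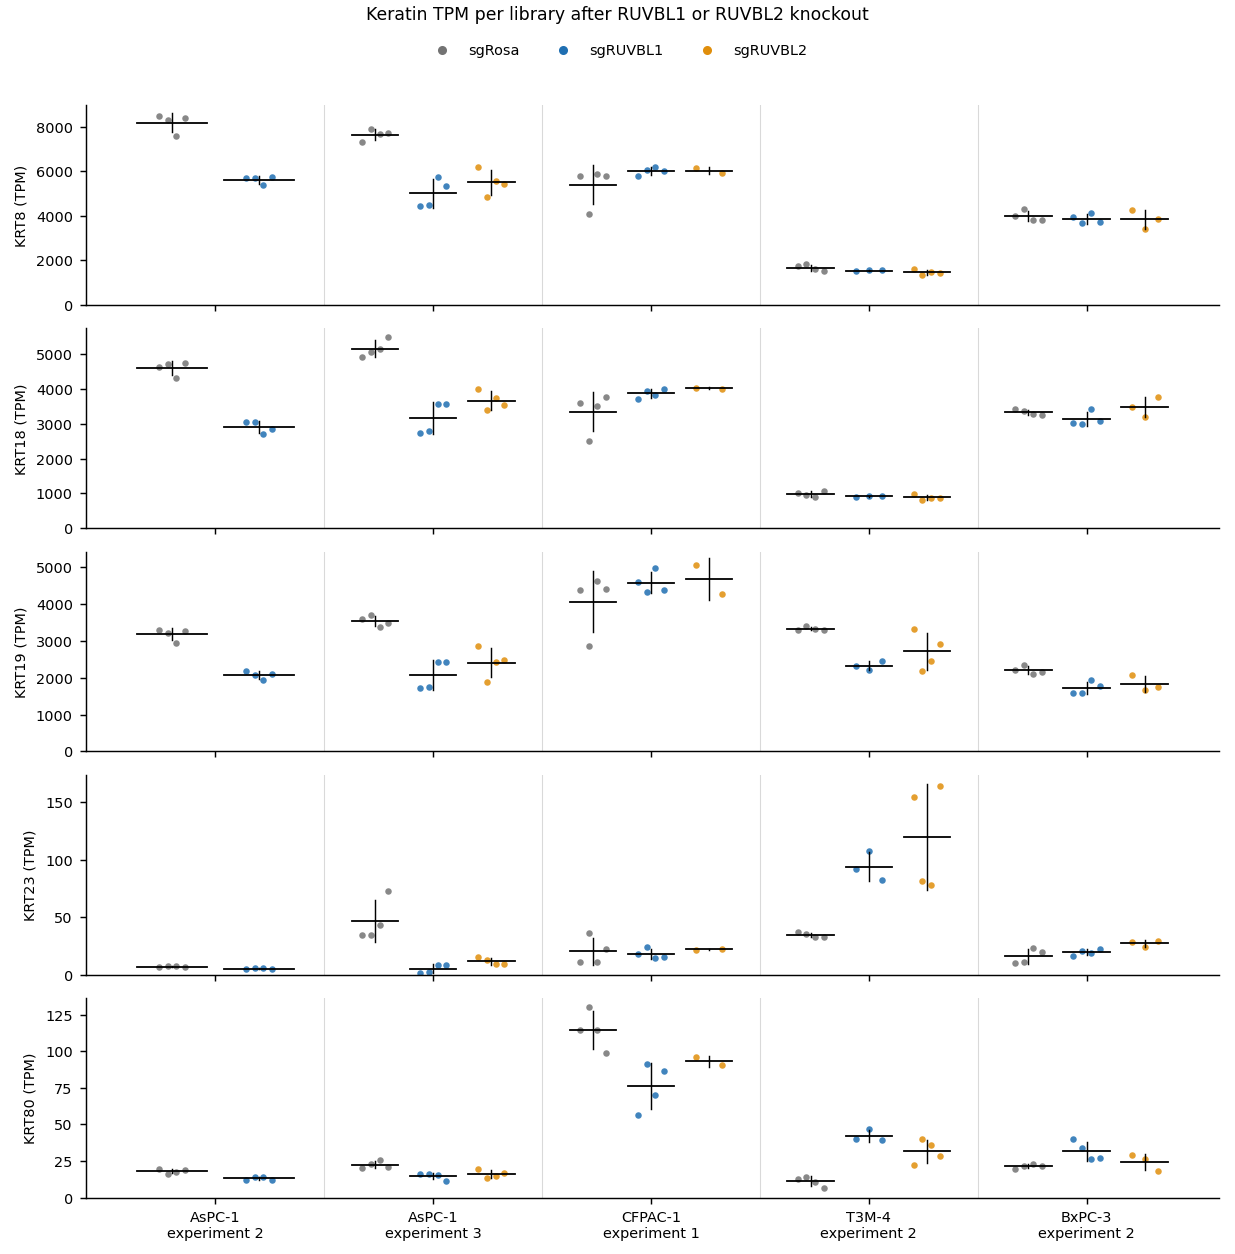
TPM of KRT8, KRT18, KRT19, KRT23 and KRT80 in sgRosa (grey), sgRUVBL1 (blue) and sgRUVBL2 (orange) libraries of 4 pancreatic lines, by experiment, on linear axes from 0, with 1 point per library, a horizontal bar at the mean and a vertical bar of 1 SD either way. KRT23 is lower in AsPC-1 experiment 3 and higher in T3M-4, and KRT19 passed the test as lower in 7 of 9 comparisons.

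Knockout of CDK1, the kinase that drives mitosis, or RPA3, a subunit of the replication protein that coats single-stranded DNA, called 9 of 67 tests, 4 higher and 5 lower. KRT19 was called in none of the 10 comparisons (log2 fold changes -0.24 to 0.25). T3M-4 experiment 2 held 7 of the 9 calls. In sgCDK1 there, 4 of 7 members were called (16.8% of genes): KRT23 rose from 36.9, 35.6, 32.4 and 33.1 TPM to 95.2 and 88.9 (log2 fold change 1.39, SE 0.22, adjusted p = 0.000764), KRT20 rose from 2.61, 2.55, 2.07 and 3.07 to 8.48 and 8.05 (log2 fold change 1.38, SE 0.24, adjusted p = 0.0012), and KRT8 and KRT18 fell (log2 fold changes -0.28 and -0.52). The KRT8 call was lost without sgCDK1 replicate 1 or 2 or sgRosa replicate 1 or 2 (log2 fold change -0.30 to -0.24, adjusted p 0.065 to 0.163) and the KRT18 call without sgCDK1 replicate 2 (log2 fold change -0.34, adjusted p 0.0956). In sgRpa3 of the same experiment, 3 of 7 were called (24.6% of genes), KRT8 (log2 fold change -0.56, SE 0.08, adjusted p = 0.000175), KRT18 (log2 fold change -0.60, SE 0.10, adjusted p = 0.000642) and KRT7 (log2 fold change -0.25, SE 0.08, adjusted p = 0.0224), all lower, the last lost without sgRpa3 replicate 2 (log2 fold change -0.18, adjusted p 0.232).

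Outside T3M-4, KRT20 rose in the CFPAC-1 libraries labelled sgRpa3, to 29.2 and 25.1 TPM from 4.49, 9.12, 4.69 and 8.68 (log2 fold change 1.92, SE 0.23, adjusted p = 0.000132; 2.06 without the library labelled sgRosa replicate 2), 1 of 7 members beside 11.6% of genes. Without that library KRT23 was called there as well (log2 fold change 0.90, SE 0.23, adjusted p = 0.0184). In BxPC-3 experiment 2, sgRpa3 raised KRT23 from 9.94, 10.6, 23.4 and 19.8 TPM to 30.6 and 29.8 (log2 fold change 0.97, SE 0.24, adjusted p = 0.00774; 1 of 6 members, 20.8% of genes), lost without sgRpa3 replicate 1 or 2, log2 fold change 0.95 to 0.99, adjusted p 0.0609 to 0.0829.

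In the other 6 comparisons limma called 0 members. They were AsPC-1 sgCDK1 (16.7% of genes; 3 members with unadjusted p under 0.05, KRT7, KRT8 and KRT18, beside 3596 of 12224 genes), AsPC-1 sgRpa3 (0.654%; 1 member, KRT80, beside 1081), BxPC-3 sgRpa3 experiment 1 (0.307%; 1 member, KRT23, beside 1024 of 12398), BxPC-3 sgCDK1 (5.82%; 1 member, KRT80, beside 2538 of 12380), the CFPAC-1 libraries labelled sgCDK1 (0.0%; 1 member, KRT7, beside 1477 of 12748) and T3M-4 sgRpa3 experiment 1 (0.0%; 1 member, KRT23, beside 189 of 12636). In the last, leaving out sgKLF5 replicate 2 of that experiment, which shares the fit, brought KRT23 past the test (log2 fold change 0.80, SE 0.09, adjusted p = 0.0126).

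To set KLF5, RUVBL1 and RUVBL2 against loss of genes that every dividing cell needs, each was also compared with the mean of sgCDK1 and sgRpa3 in the same experiment. Of 81 tests 49 were called, 18 higher and 31 lower. KRT19 was lower in 9 of 12 and higher in 0, and KRT20 lower in 5 of 9 and higher in 0. KRT23 was higher in 5 and lower in 2, KRT80 higher in 5 and lower in 3, KRT7 higher in 3 and lower in 3, KRT8 higher in 2 and lower in 5, and KRT18 higher in 3 and lower in 4. Within a line these comparisons share the sgCDK1 and sgRpa3 libraries. In CFPAC-1 they rest on libraries whose CDK1 level did not separate from sgRosa.

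In AsPC-1, sgKLF5 gave 2 of 7 calls (34.7% of genes), KRT18 and KRT80, both higher. KRT18 was lost without sgCDK1 replicate 2 or sgKLF5 replicate 1 (log2 fold change 0.22 to 0.23, adjusted p 0.0601 to 0.0759) and KRT80 without sgCDK1 replicate 2 or sgKLF5 replicate 2 or sgRpa3 replicate 1 (log2 fold change 0.35 to 0.41, adjusted p 0.0548 to 0.0603). In that line sgRUVBL1 gave 6 of 7 (51.2%) and sgRUVBL2 6 of 7 (42.1%), all lower, led by KRT23 at -3.62 (SE 0.35) and -2.35 (SE 0.35). In T3M-4, sgKLF5 gave 6 of 7 (28.4%) and sgRUVBL1 and sgRUVBL2 7 of 7 each (41.8% and 38.2%). KRT8 and KRT18 there were higher in sgRUVBL1 (0.30 and 0.46) and sgRUVBL2 (0.22 and 0.40) than in sgCDK1 and sgRpa3, while KRT8 was lower in sgKLF5 (-0.55). KRT20 was lower in all 3, at -1.69 in sgKLF5, -1.19 in sgRUVBL1 and -0.96 in sgRUVBL2. Calls that 1 library decided were KRT23 in sgRUVBL1 (lost without sgRUVBL1 replicate 2 or sgRpa3 replicate 1, log2 fold change 0.53 to 0.58, adjusted p 0.0505 to 0.0863) and, in sgRUVBL2, KRT19 (without sgCDK1 replicate 1 or 2 or sgRUVBL2 replicate 2 or 3 or sgRpa3 replicate 1, log2 fold change -0.28 to -0.16, adjusted p 0.0501 to 0.126) and KRT8 (without sgRpa3 replicate 2, log2 fold change 0.17, adjusted p 0.0718).

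In BxPC-3, sgKLF5 gave 5 of 6 (46.8% of genes), KRT23 and KRT80 higher (1.81 and 0.79) and KRT8, KRT18 and KRT19 lower (-0.54, -0.33 and -0.66). There sgRUVBL1 (1 of 6; 20.4%) and sgRUVBL2 (1 of 6; 20.7%) called KRT19 alone (-0.47 and -0.39). In CFPAC-1, sgKLF5 gave 6 of 7 (43.7%), with KRT19 at -0.70 the largest fall. Of those, KRT20 was lost without sgCDK1 replicate 2 or sgKLF5 replicate 3 (log2 fold change -0.59 to -0.55, adjusted p 0.052 to 0.0723) and KRT23 without sgCDK1 replicate 2 or sgKLF5 replicate 1 or 2 or sgRpa3 replicate 2 (log2 fold change 0.80 to 0.85, adjusted p 0.0528 to 0.0726). In that line sgRUVBL1 gave 2 of 7 (55.4%), KRT80 (-0.65) and KRT20 (-0.59, lost without sgCDK1 replicate 2, log2 fold change -0.53, adjusted p 0.0501). With sgRUVBL2 limma called 0 of 7 (23.8%), and 1 member, KRT80, had an unadjusted p under 0.05, beside 4628 of 12748 genes.

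Knockout of CHD4, the ATPase of the NuRD chromatin complex, was made in AsPC-1 with its own 4 sgRosa libraries, and called 7 of 7 members (50.0% of genes), 4 higher and 3 lower. KRT7, nearly silent in this line, rose from 2.75, 2.87, 4.65 and 4.38 TPM to 59.2, 62.9, 53.9 and 47.5 (log2 fold change 3.63, SE 0.14, adjusted p = 3.59e-09), and KRT20 rose from 0.235, 0.577, 0.558 and 0.716 to 3.27, 3.89, 6.85 and 4.76 (log2 fold change 1.88, SE 0.18, adjusted p = 5.93e-06). KRT23 went from 16.8, 14, 13.3 and 17.3 to 19.8, 21, 25.1 and 21.5 (log2 fold change 0.49, SE 0.10, adjusted p = 0.00199). All 4 knockout libraries lay above all controls for these genes. KRT80 rose as well (log2 fold change 0.42, SE 0.08, adjusted p = 0.00105). KRT8 fell from 7879, 7826, 7845 and 8112 to 5959, 6059, 6026 and 6075 (log2 fold change -0.39, SE 0.03, adjusted p = 3.71e-07), and KRT18 and KRT19 fell with it (log2 fold changes -0.30 and -0.46), without overlap. The 7 calls held with any 1 library left out. SERPINB5 encodes maspin, an epithelial serpin. After its knockout limma called 0 of 6 members (0.0343% of genes, 4 in all), 1 member, KRT23, had an unadjusted p under 0.05, beside 802 genes, and KRT23 was 8.05, 7.95, 8.06 and 9.86 TPM against 6.46, 7.02, 7.68 and 6.14 (log2 fold change 0.28, SE 0.10, adjusted p = 0.638).

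Against the pooled DMSO libraries, KRT19 and KRT18 were lower in empty-vector cells in CB-6644 in both AsPC-1 and T3M-4, and KRT8 and KRT23 in AsPC-1. Log2 fold changes against the own DMSO library of a genotype are given beside these as descriptions with no test, since that control is a single library. In all 8 of 13 tests were called, 2 higher and 6 lower, 5 of 6 in AsPC-1 (64.4% of genes) and 3 of 7 in T3M-4 (34.3%). The 3 DMSO libraries of AsPC-1 (EV, A62T and dF109, in that order here and below) held 2894, 2955 and 3175 TPM of KRT19 and the 3 EV libraries in CB-6644 1167, 1186 and 1075 (log2 fold change -1.4, SE 0.06, adjusted p = 5.57e-09). KRT18 went from 4932, 5291 and 5972 to 2385, 2304 and 2058 (log2 fold change -1.26, SE 0.07, adjusted p = 7.88e-08) and KRT8 from 7061, 6856 and 7670.1 to 4202, 4116 and 3799 (log2 fold change -0.83, SE 0.06, adjusted p = 2.55e-07). No treated library of the 3 genes reached the controls. KRT23 went from 2.78, 6.38 and 9.69 to 1.47, 1.41 and 1.64 (log2 fold change -1.42, SE 0.26, adjusted p = 0.000496), and the EV DMSO library alone gave -0.59. KRT7 was 2.98, 3.79 and 3.11 TPM and was called higher (log2 fold change 0.45, SE 0.16, adjusted p = 0.0249; EV DMSO library alone, 0.26), a call lost without the A62T DMSO library or EV CB-6644 replicate 2 or the dF109 DMSO library (log2 fold change 0.34 to 0.47, adjusted p 0.0512 to 0.101). KRT80 did not pass (log2 fold change 0.06, SE 0.10, adjusted p = 0.601).

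In T3M-4, KRT19 went from 3077, 2917 and 2913 TPM to 1494, 1366 and 1303 (log2 fold change -1.10, SE 0.07, adjusted p = 3.17e-06), without overlap. The EV DMSO library of this line stood apart from the other 2 DMSO libraries in several members: KRT7 was 655, 1249.7 and 1219 TPM, KRT23 143, 281 and 219, KRT80 2.37, 17.2 and 10.2 and KRT20 12.8, 5.54 and 6.54. Pooling assumes that genotypes do not differ in DMSO. KRT18 went from 495, 901 and 879 to 483, 494 and 509 (log2 fold change -0.56, SE 0.18, adjusted p = 0.0282), and the EV DMSO library alone gave 0.000912. KRT20 was 13, 12.4 and 13.4 TPM in CB-6644 (log2 fold change 0.66, SE 0.22, adjusted p = 0.0347; own DMSO, 0.012). The KRT18 call was lost without the A62T DMSO library or EV CB-6644 replicate 1 or 2 or the dF109 DMSO library (log2 fold change -0.56 to -0.41, adjusted p 0.0611 to 0.118) and the KRT20 call without the A62T DMSO library or EV CB-6644 replicate 1, 2 or 3 or the dF109 DMSO library (log2 fold change 0.45 to 0.69, adjusted p 0.0654 to 0.126). Against the EV DMSO library KRT19 gave -1.15, and KRT80 and KRT8, not called against the pool, 1.53 and 0.43. KRT23 was -0.29 against the pool (adjusted p = 0.224) and 0.23 against its own library.

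The variant lines carry RUVBL1 A62T or RUVBL2 dF109, and RUVBL1 mRNA averaged 2851 and 2032 TPM in the A62T groups and RUVBL2 mRNA 2024 and 1223 TPM in the dF109 groups of AsPC-1 and T3M-4 in CB-6644. Of 26 tests 11 were called, 3 higher and 8 lower, and KRT19 was lower in 4 of 4. In AsPC-1, A62T gave 3 of 6 calls (12.7% of genes), KRT8 at -0.32, KRT18 at -0.37 and KRT19 at -0.19, and dF109 gave 3 of 6 (33.4%), the same genes at -0.20, -0.35 and -0.25. KRT19 was 2558, 2550.2 and 2780.0 TPM in A62T and 2454, 2593 and 2531 in dF109, below the DMSO range and above the EV libraries in CB-6644 given above. Against the A62T DMSO library alone KRT8, KRT18 and KRT19 gave -0.25, -0.34 and -0.17 in A62T. Calls that 1 library decided were KRT8 and KRT18 in A62T (without A62T CB-6644 replicate 1, log2 fold change -0.30, adjusted p 0.0552, and A62T CB-6644 replicate 1, log2 fold change -0.34, adjusted p 0.0704), KRT19 in A62T (without A62T CB-6644 replicate 1, 2 or 3 or the dF109 DMSO library, log2 fold change -0.23 to -0.15, adjusted p 0.0525 to 0.167) and KRT8 in dF109 (without dF109 CB-6644 replicate 1 or the dF109 DMSO library, log2 fold change -0.19 to -0.16, adjusted p 0.0661 to 0.0794).

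In T3M-4, A62T gave 3 of 7 calls (50.0% of genes) and dF109 2 of 7 (37.6%). KRT19 was 2477, 2455 and 2335 TPM in A62T (log2 fold change -0.29, SE 0.07, adjusted p = 0.0085; own DMSO, -0.27) and 2084, 2012 and 1961 in dF109 (log2 fold change -0.56, SE 0.07, adjusted p = 0.000976). KRT80 was 23.9, 23.7 and 24.5 TPM in A62T (log2 fold change 1.51, SE 0.44, adjusted p = 0.0185; own DMSO, 0.46) and 22.5, 22.9 and 21.5 in dF109 (log2 fold change 1.4, SE 0.44, adjusted p = 0.029; own DMSO, 1.06). All 6 treated variant libraries lay above the 3 DMSO libraries for KRT80. These KRT80 calls were lost without A62T CB-6644 replicate 3 (log2 fold change 1.49, adjusted p 0.0512) in A62T and without dF109 CB-6644 replicate 1, 2 or 3 or the dF109 DMSO library (log2 fold change 1.38 to 1.57, adjusted p 0.0532 to 0.0789) in dF109. KRT23 in A62T (log2 fold change 0.52, SE 0.18, adjusted p = 0.0305) was lost without A62T CB-6644 replicate 1, 2 or 3 or the EV DMSO library or the dF109 DMSO library (log2 fold change 0.26 to 0.57, adjusted p 0.0506 to 0.0775), and its own DMSO library gave 0.083. In dF109, KRT18 and KRT23 were not called against the pool and gave -0.39 and 0.28 against the dF109 DMSO library alone.

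Set directly against EV cells in CB-6644, variant cells held more of most members. Of 26 tests 20 were called, 17 higher and 3 lower: KRT19 and KRT23 were higher in 4 of 4, KRT18 in 3, KRT8 and KRT80 in 2, KRT7 higher in 2 and lower in 1, and KRT20 lower in 2 of 2. In AsPC-1, A62T gave 4 of 6 (51.1% of genes) and dF109 5 of 6 (47.2%). KRT19 was higher by 1.2 (SE 0.06) in A62T and 1.15 (SE 0.06) in dF109, and KRT23 by 1.85 and 1.96, with KRT23 at 7.93, 7.96 and 8.19 TPM in A62T and 9.24, 7.77 and 9.29 in dF109. In T3M-4 they gave 6 of 7 (50.6%) and 5 of 7 (34.6%), with KRT19 higher by 0.81 and 0.54 and KRT20 lower (log2 fold changes -1.12 and -0.62). KRT8 was within its error of EV in T3M-4 (-0.05 and 0.07, SE 0.12).

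Of these 20 calls 7 were lost with 1 library left out. In AsPC-1 this was KRT7 in dF109 (without EV CB-6644 replicate 2 or dF109 CB-6644 replicate 1 or 3, log2 fold change -0.44 to -0.34, adjusted p 0.0719 to 0.116). In T3M-4 A62T they were KRT18 (without A62T CB-6644 replicate 2, log2 fold change 0.56, adjusted p 0.0522) and KRT80 (without A62T CB-6644 replicate 1, 2 or 3 or EV CB-6644 replicate 2 or 3, log2 fold change 1.24 to 1.37, adjusted p 0.0557 to 0.0684). In T3M-4 dF109 they were KRT7 (without dF109 CB-6644 replicate 2, log2 fold change 0.72, adjusted p 0.0538), KRT20 (without EV CB-6644 replicate 1, 2 or 3 or dF109 CB-6644 replicate 1, 2 or 3, log2 fold change -0.65 to -0.60, adjusted p 0.0663 to 0.105), KRT23 (without EV CB-6644 replicate 2 or 3 or dF109 CB-6644 replicate 1, 2 or 3, log2 fold change 0.62 to 0.66, adjusted p 0.0508 to 0.06) and KRT80 (without EV CB-6644 replicate 2 or 3 or dF109 CB-6644 replicate 1, 2 or 3, log2 fold change 1.14 to 1.28, adjusted p 0.0938 to 0.117). Since the EV and variant DMSO libraries of T3M-4 also stood apart in KRT7, KRT20, KRT23 and KRT80, and in KRT8 (791, 1112 and 1170.1 TPM) and KRT18, a difference present before treatment and a difference in response cannot be told apart for these genes with 1 DMSO library per genotype.

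**Figure D4:**
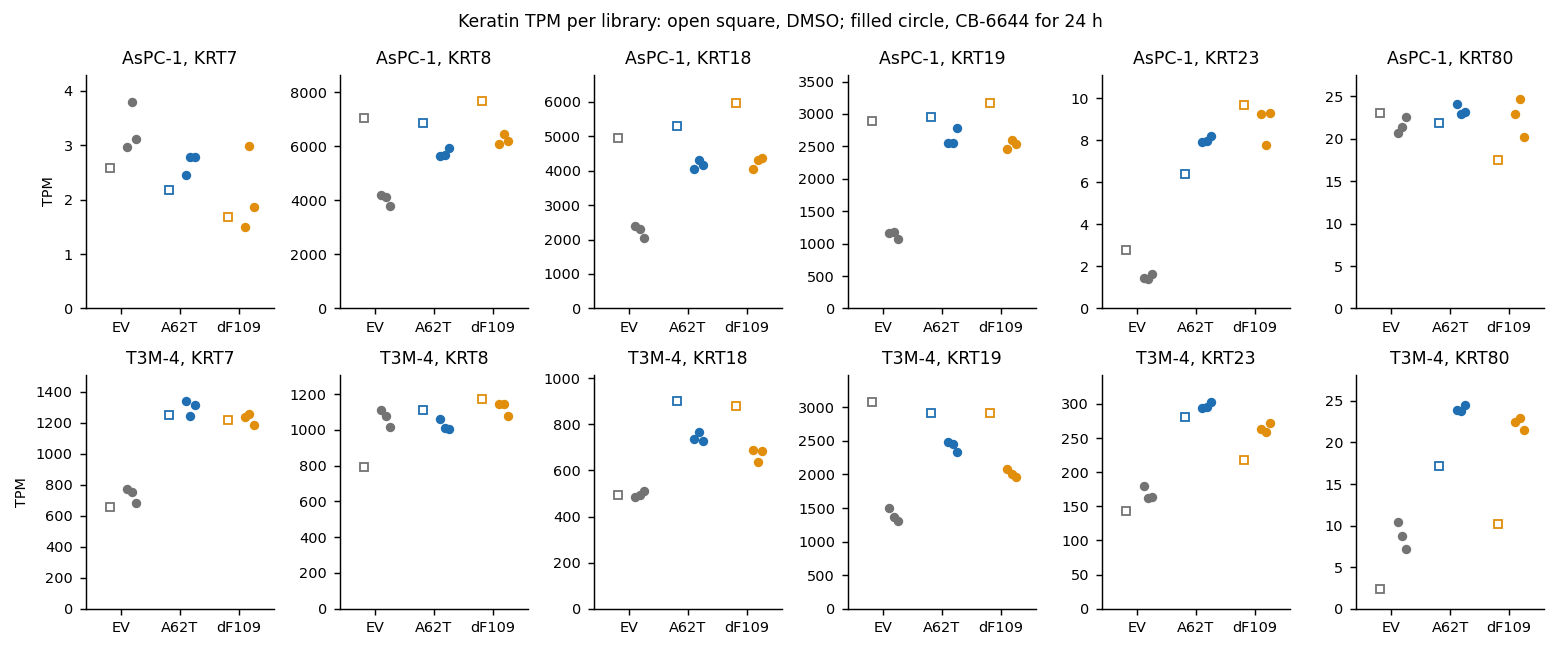
TPM of KRT7, KRT8, KRT18, KRT19, KRT23 and KRT80 in AsPC-1 (upper panels) and T3M-4 (lower panels) cells with empty vector (EV), A62T or dF109, on linear axes from 0, with an open square for each DMSO library and a filled circle for each CB-6644 library. KRT19 is lowest in the EV libraries in CB-6644 in both lines, and the T3M-4 EV DMSO library lies below the other 2 DMSO libraries for KRT7, KRT8, KRT18, KRT23 and KRT80.

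In the 4 lines of other origin CB-6644 called 14 of 20 tests, 4 higher and 10 lower, against a high background of 71.4% of genes in T84, 81.1% in A375, 77.9% in H1048 and 77.7% in RH30. The member counts were 5 of 7, 3 of 4, 4 of 5 and 2 of 4 in that order. T84 rose in KRT20, from 954, 978, 957 and 1052 TPM to 1682, 1664, 1722 and 1723 (log2 fold change 0.79, SE 0.04, adjusted p = 8.54e-11), and in KRT23, from 51.1, 49.2, 54.9 and 61.1 to 81.7, 83.5, 83.5 and 86 (log2 fold change 0.62, SE 0.06, adjusted p = 1.51e-07). It fell in KRT19, from 1445, 1317, 1355 and 1227 to 831, 859, 900.0 and 818 (log2 fold change -0.65, SE 0.05, adjusted p = 7.29e-09). The groups did not overlap for these 3 genes. KRT18 (-0.46, SE 0.03) and KRT8 (-0.21, SE 0.04) fell on the log2 scale, also without overlap.

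In A375, KRT8 rose from 62.6, 60.4, 61.8 and 65.9 TPM to 96.1, 100.5, 106 and 95.1 (log2 fold change 0.66, SE 0.04, adjusted p = 3.89e-08) while KRT18 fell from 595, 594, 674 and 646 to 439, 441, 444 and 419.7 (log2 fold change -0.52, SE 0.04, adjusted p = 2.79e-07). KRT80 fell from 155, 160.1, 145 and 147 to 114, 115, 119 and 114 (log2 fold change -0.39, SE 0.03, adjusted p = 7.7e-07). In all 3 the groups stayed apart. In H1048, KRT7 fell from 598, 597, 572 and 601 to 411, 374.8, 411 and 381 (log2 fold change -0.59, SE 0.04, adjusted p = 2.17e-08), and KRT8 and KRT18 fell with it (log2 fold changes -0.38 and -0.66). KRT23, at 0.515 to 1.6 TPM in that line, was called lower (log2 fold change -0.39, SE 0.14, adjusted p = 0.0213) with overlapping groups, and lost the call without CB-6644 replicate 2 or DMSO replicate 1, 2 or 4 (log2 fold change -0.37 to -0.29, adjusted p 0.0512 to 0.0646). In RH30, KRT80 fell from 171, 170.3, 172 and 165 to 67, 66.9, 68 and 64.1 (log2 fold change -1.34, SE 0.03, adjusted p = 1.78e-12), the largest fall of a member in the 4 lines, and KRT7 rose from 9.41, 10.2, 9.51 and 8.5 to 11.5, 11.6, 10.9 and 11.4 (log2 fold change 0.25, SE 0.06, adjusted p = 0.00166).

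The changes of the 4 lines were tested against each other in one fit of their 32 libraries, where a member enters if its mean over all 4 lines reaches 1 TPM. Of 42 tests 25 were called. The counts were 5 of 7 for T84 against A375 (58.3% of genes), 4 of 7 against H1048 (50.2%) and 5 of 7 against RH30 (50.5%), 5 of 7 for A375 against H1048 (56.9%) and 2 of 7 against RH30 (59.5%), and 4 of 7 for H1048 against RH30 (54.0%). The KRT80 change was lower in RH30 than in each of the others, by 0.95 to 1.51 on the log2 scale. The KRT8 change was higher in A375 than in T84 (T84 minus A375 -0.87) and than in H1048 (A375 minus H1048 1.04). KRT7 fell more in H1048 than in the others (T84 minus H1048 0.74, A375 minus H1048 0.69, H1048 minus RH30 -0.83). The KRT20 change was higher in T84 than in each of the other lines, by 0.58 to 0.81, but those lines hold under 1 TPM of KRT20. KRT19 and KRT23 were low in the same lines too, with mean DMSO levels of at most 1.02 and 1.46 TPM. With a pseudocount of 0.1 in place of 1, T84 minus A375 became -0.46 for KRT20 and -0.01 for KRT23, both without a call, and the total fell to 15 calls. Of the 25 calls, 4 were lost with 1 library left out: KRT19 for A375 against H1048 (log2 0.27 to 0.33) and T84 against H1048 (-0.37 to -0.32), and KRT23 for H1048 against RH30 (-0.37 to -0.29) and T84 against A375 (0.27 to 0.38).

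The members' summed level shows how far these changes added up. In AsPC-1 the mean sum differed from its controls by -33.5% and -37.4% in sgRUVBL1 of experiments 2 and 3, by -29.3% in sgRUVBL2, by -22.5% in sgCHD4 and by -52.3% in EV cells in CB-6644, with no overlap and no test. In A62T and dF109 cells of that line in CB-6644 it differed by -19.4% and -16.6%. In T3M-4 it differed by -24.8% in sgKLF5 of experiment 2, by -11.8% in sgRUVBL1, by -5.80% in sgRUVBL2, which overlapped sgRosa, and by -35.7% in EV cells in CB-6644. In AsPC-1 sgKLF5 the sum was higher by 12.5% in experiment 1 and 5.81% in experiment 3.

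The ratio of summed type II to summed type I TPM was taken in every library and is given for some comparisons only. Those left out include BxPC-3 sgKLF5 of experiment 2, SUIT-2, CFPAC-1, sgRUVBL1 and sgRUVBL2 of AsPC-1, and the variant cells. In T3M-4 the ratio was 0.649 to 0.665 in sgRosa and 1.06 to 1.15 in sgKLF5 of experiment 1, and 0.724 to 0.807 against 0.975 to 1.08 in experiment 2. The same sgRosa libraries of experiment 2 stood against 1.02 to 1.06 in sgRUVBL1 and 0.876 to 1.05 in sgRUVBL2. BxPC-3 went from 1.29 to 1.31 in sgRosa to 1.61 to 1.74 in sgKLF5 of experiment 1. In CB-6644 EV cells it was 1.19 to 1.22 against 0.834 to 0.905 in DMSO in AsPC-1, and 0.858 to 0.903 against 0.388 to 0.597 in T3M-4. In each of these comparisons the groups did not overlap, and in AsPC-1 sgKLF5 they did in both experiments (0.894 to 0.941 against 0.881 to 0.921, and 0.858 to 0.907 against 0.851 to 0.899).

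**Figure D5:**
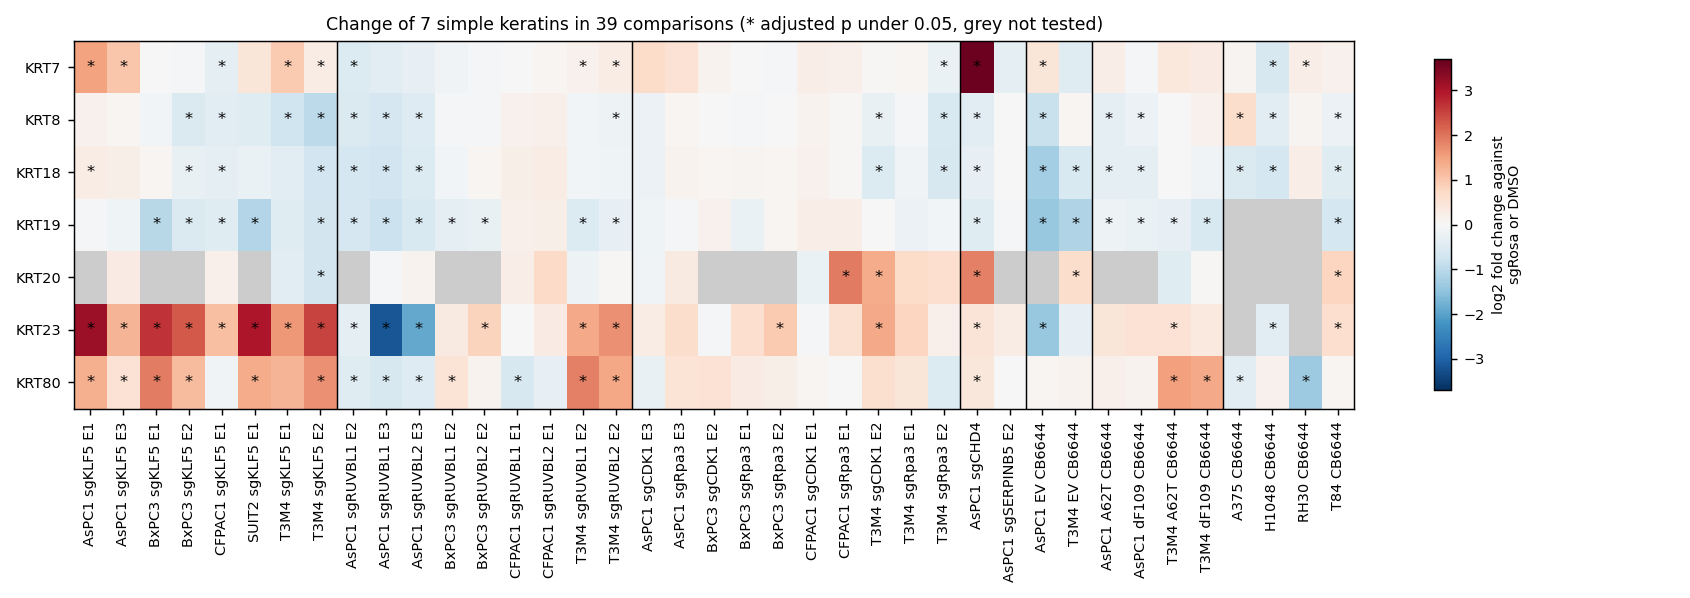
Log2 fold change of the 7 simple keratins (down the side) in 39 knockout and CB-6644 comparisons with sgRosa or DMSO (along the bottom), coloured from blue (lower) to red (higher), with a star where the adjusted p is under 0.05 and grey where the keratin was not tested. KRT23 is red with a star in all 8 KLF5 comparisons, and KRT19 is blue with a star in 7 of 9 RUVBL1/2 comparisons.

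Across the 127 knockout and CB-6644 libraries, each set against the mean of its own controls, the members formed loose pairs. KRT23 and KRT80 moved together (Pearson r = 0.70), as did KRT8 with KRT18 (r = 0.67), KRT8 with KRT19 (r = 0.59) and KRT18 with KRT19 (r = 0.58). KRT7 was near 0 with KRT8 (r = 0.04) and KRT19 (r = 0.08). With the other members KRT7 gave r = 0.41 (KRT20), 0.32 (KRT23), 0.25 (KRT80) and 0.21 (KRT18). KRT18 and KRT23 gave r = 0.39. KRT19 and KRT80 ran against each other (r = -0.31). Libraries of one group and shared controls are not independent, so these are descriptions with no test.

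Among 11094 genes whose mean was 5 TPM or more, the closest to each member in the same 127 libraries were named by r. For KRT7 they were BEX3 (0.86), ETNK2 (0.82) and EEF1A2 (0.81). KRT8 was closest to KRT18 (0.67), Gill (0.63) and KRT19 (0.59). For KRT18 they were KRT15 (0.70), KRT8 (0.67) and TM4SF18 (0.63). KRT19 was closest to FGF19 (0.63), the gene listed as Gill (0.61) and PRR15L (0.60). KRT20 was closest to KLK13 (0.61), ELOVL6 (0.61) and FOLR1 (0.57). KRT23 was closest to SOX4 (0.78), CFB (0.78) and TMC5 (0.77), and KRT80 to IKBKE (0.79), SLC35C2 (0.78) and SYS1 (0.78).

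Most tested keratins of layered epithelia fell in sgKLF5 of T3M-4, BxPC-3 and CFPAC-1. Of 12 stratified keratins, such as KRT5 and KRT14, T3M-4 sgKLF5 lowered 10 of 12 tested in experiment 1 and 10 of 11 in experiment 2 and raised 0 in either, where 2.46% and 11.2% of all genes tested were called lower. BxPC-3 sgKLF5 lowered 8 of 10 and 7 of 11, raising 0 and 1, beside 8.1% and 13.6% of all genes lower, and CFPAC-1 sgKLF5 lowered 5 of 7 beside 13%. In T3M-4, sgRUVBL1 lowered 9 and sgRUVBL2 8 of 11, beside 14.6% and 15.2% of all genes. In the same T3M-4 sgKLF5 libraries of experiment 2 the simple keratins gave 3 higher and 4 lower of 7. The difference between the lists was not tested.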

How the data were processed

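RNA-seq was made by the authors from 183 libraries of poly-A RNA, sequenced as single-end reads with a kit that does not mark strand. Per the methods, reads were assigned to transcripts of hg38 with kallisto and summed to genes with tximport, and the deposited values are TPM in 8 tables, 1 per line or experiment set. The submitters' processing notes also name Bowtie2 2.4.2, SAMtools 1.11, bedtools 2.30.0, deepTools 3.5.0, HOMER 4.11, MACS2 and MAGeCK, which serve other data types. Every library summed to 1000000 TPM, so depth is unknown. A library held 11292 to 14024 genes of at least 1 TPM. Columns of per-sample values left unused numbered 0. No library was a duplicate of another.

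The authors tested counts with DESeq2. The deposited values are TPM, so limma 3.58.1 (R 4.3.3) was fitted to log2(TPM + 1) instead, with a mean-variance trend, 1 fit per line and experiment with all its groups, a minimum mean of 1 TPM over the fit, and Benjamini-Hochberg adjustment over all genes tested at a threshold of 0.05. All tests are two-sided. The 3 DMSO libraries of a line with RUVBL variants were pooled as 1 control. The scripts were tested on simulated data. The authors left out 1 T3M-4 sgRUVBL1 library.

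Alternatives were a pseudocount of 0.1, no filter or a mean of at least 5 TPM, median-of-ratios scaling, fits of the compared groups alone, each genotype's own DMSO library, a block for the replicate number and each library left out in turn. Leaving out 5 libraries that stood apart was chosen after seeing the data. The members and the lists were chosen with earlier results of these data known. The 7 members are described in every comparison, and of other lists only counts and the gene with the largest rise and fall past the threshold are named. The genes most like a member are those with the highest Pearson r over all knockout and CB-6644 libraries, each minus the mean of its controls, at a mean of at least 5 TPM.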

Additional observations from a re-analysis of the deposited data

Results flagged for a closer look

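In groups of 4 to 10 libraries, the gap of the highest or lowest library to its nearest neighbour was set against the range of the group (Dixon's test at 95%), for 184 sets of a group and a member. It marked 20, where chance marks about 1 in 20 sets. Of these, 3 belonged to the library labelled CFPAC-1 sgRosa replicate 2, at 782 TPM for KRT7, 4090.4 TPM for KRT8 and 2855 TPM for KRT19, each below the other 3. A further 3 belonged to T3M-4 sgKLF5 replicate 2 of experiment 1, at 778 TPM for KRT18, 163 TPM for KRT23 and 19.7 TPM for KRT80. SUIT-2 sgKLF5 replicate 4 held 5154 TPM of KRT8. These libraries stood apart over all genes as well.

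The others were single values. In AsPC-1 they were KRT7 at 19.5 TPM (sgKLF5 experiment 1, replicate 6, where 4 basal markers summed to 143.7 TPM beside 1.55 to 3.42 in the other 7 libraries), KRT19 at 3334 TPM (sgKLF5 experiment 3, replicate 4), KRT8 at 5367 TPM (sgRUVBL1 experiment 2, replicate 3), KRT80 at 11.4 TPM (sgRUVBL1 experiment 3, replicate 4), and KRT23 at 9.86 TPM and KRT80 at 13.5 TPM in sgSERPINB5 replicate 4. T3M-4 sgRosa replicate 2 of experiment 2 held 3406 TPM of KRT19. In CB-6644, KRT80 stood at 119 TPM in A375 replicate 3 and 8.02 TPM in H1048 replicate 3, and KRT18 at 4873 TPM in T84 replicate 4. In DMSO, H1048 replicate 3 held 572 TPM of KRT7 and 1.07 TPM of KRT23, and RH30 replicate 4 held 4.17 TPM of KRT18.

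The size of a change differed between experiments of a line, by limma's test of the difference, for 8 values on the log2 scale. They were KRT23 for sgKLF5 in AsPC-1 (-1.90) and T3M-4 (0.87), KRT23 for sgRUVBL1 in AsPC-1 (-2.81), KRT7 for sgKLF5 in T3M-4 (-0.69), and in BxPC-3 sgKLF5 KRT8 (-0.42), KRT18 (-0.35), KRT19 (0.50) and KRT80 (-0.71). Without sgKLF5 replicate 2 of experiment 1, the T3M-4 values were 0.77 for KRT23 and -0.55 for KRT7.

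The CB-6644 change differed between the 4 lines of other origin, by the same kind of test, for 25 values out of 42 tests. In the same contrasts 50.2% to 59.5% of all genes tested were called, and with a pseudocount of 0.1 the values called numbered 15. T84 minus A375 was -0.87 for KRT8, -0.77 for KRT19, 0.59 for KRT20, 0.38 for KRT23 and 0.46 for KRT80. T84 minus H1048 was 0.74 for KRT7, -0.38 for KRT19, 0.58 for KRT20 and 1.01 for KRT23. T84 minus RH30 was -0.72 for KRT18, -0.59 for KRT19, 0.81 for KRT20, 0.62 for KRT23 and 1.41 for KRT80. A375 minus H1048 was 0.69 for KRT7, 1.04 for KRT8, 0.39 for KRT19, 0.64 for KRT23 and -0.56 for KRT80, and A375 minus RH30 was -0.78 for KRT18 and 0.95 for KRT80. H1048 minus RH30 was -0.83 for KRT7, -0.92 for KRT18, -0.39 for KRT23 and 1.51 for KRT80.

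In 14 cases of a member and a target, every library of one line moved one way under a target and every library of the other line the opposite way. These lines were in tables made separately, and the difference was not tested. The share of all genes with the same pattern was not counted. Groups of sgCDK1 and sgRpa3 held 2 libraries each, and small groups stay apart more easily. Some of the values below were not called against sgRosa. KRT19 and KRT80 were called in no sgCDK1 or sgRpa3 comparison, and limma called 0 members in AsPC-1 sgRpa3 and CFPAC-1 sgRUVBL2. The log2 fold changes were 1.41 in T3M-4 and -3.16 in AsPC-1 experiment 3 for KRT23 in sgRUVBL1, 1.68 in T3M-4 and -1.89 in AsPC-1 for KRT23 in sgRUVBL2, 1.88 in T3M-4 and -0.60 in CFPAC-1 for KRT80 in sgRUVBL1, and 1.44 in T3M-4 and -0.47 in AsPC-1 for KRT80 in sgRUVBL2. KRT7 in sgRUVBL1 was 0.16 in T3M-4 and -0.50 in AsPC-1 experiment 2. In sgRUVBL2, KRT8 was 0.18 and KRT18 0.28 in CFPAC-1, against -0.48 and -0.49 in AsPC-1. In sgKLF5, KRT8 was 0.17 and KRT18 0.28 in AsPC-1 experiment 1, against -0.97 and -0.71 in T3M-4 experiment 2. In sgCDK1, KRT19 was 0.23 in CFPAC-1 and -0.16 in AsPC-1, and KRT80 0.58 in T3M-4 and -0.28 in AsPC-1. In sgRpa3, KRT8 was 0.072 and KRT18 0.13 in AsPC-1 against -0.56 and -0.60 in T3M-4 experiment 2, and KRT19 was 0.25 in CFPAC-1 and -0.24 in BxPC-3 experiment 1. Without the library labelled sgRosa replicate 2, the CFPAC-1 values were -0.54 for KRT80 in sgRUVBL1, 0.048 for KRT8 and 0.15 for KRT18 in sgRUVBL2, and for KRT19 0.073 in sgCDK1 and 0.090 in sgRpa3.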

How the results depend on the processing

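Among alternative values of single keratins and comparisons, 5723 kept their side of the threshold, 273 lost the call, 108 gained it and 7 reversed. A value counted as reversed where its sign changed and it was called in either fit. Sign changes without a call in either fit are part of the 5723. With 1 library left out, calls ranged from 28 to 36 for KLF5 (33 with all libraries), 28 to 33 for RUVBL1/2 (30), 7 to 11 for CDK1/RPA3 (9), 7 to 7 for CHD4 and SERPINB5 (7), 6 to 11 for CB-6644 in EV cells (8), 8 to 14 in variant cells (11), 13 to 15 in the lines of other origin (14), 16 to 20 for variant against EV cells (20), 6 to 9 between experiments (8), 23 to 27 between lines of other origin (25) and 46 to 50 against sgCDK1 and sgRpa3 (49). Fitting only the compared groups left 4 calls in variant cells, and a pseudocount of 0.1 left 15 between lines of other origin. Reversed values were KRT7 in T3M-4 sgRUVBL1 under median-of-ratios scaling (-0.072), KRT18 (0.000912) and KRT23 (0.23) in T3M-4 EV cells against their own DMSO library (1 library, with no test), KRT80 in T3M-4 EV cells (-0.55) and KRT18 in T3M-4 A62T cells (-0.26) without the EV DMSO library, where leaving out 1 library at a time gave -0.55 to 0.67 and -0.26 to 0.17, and KRT20 (-0.46) and KRT23 (-0.011) for T84 minus A375 with a pseudocount of 0.1. Beyond the construction of each alternative, the cause was not tested. Control levels under median-of-ratios scaling moved by more than 1 SD, in TPM, for these values: A375 KRT8 68.1, KRT18 681 and KRT80 164.9, H1048 KRT7 527, KRT8 446, KRT18 560.4 and KRT20 0.0635, RH30 KRT80 177, SUIT-2 KRT19 3014, and T84 KRT7 22.5, KRT8 11321, KRT18 8194, KRT19 1586, KRT20 1168, KRT23 64.2 and KRT80 84.5.

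A block for the replicate number gave 32 calls for KLF5, 32 for RUVBL1/2, 10 for CDK1/RPA3, 7 for CHD4 and SERPINB5, 14 in the lines of other origin, 21 for variant against EV cells, 11 between experiments, 23 between lines of other origin and 50 against sgCDK1 and sgRpa3. The numbers were not taken to pair the libraries: of 23 comparisons with 3 or more pairs, 0 had every pair's deviations correlated over 0.1 (r from -0.46 to 0.35), and in 1 every library correlated best with its own number. No block could be fitted for CB-6644 against the pooled DMSO libraries, which carry no shared number. TPM hide depth, so the counting error of low members, such as KRT20 outside T84 and KRT23 in H1048, is unknown.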

Other observations

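SYNM, synemin, an intermediate filament protein that is no keratin, had the largest rise past the threshold among the tested members of the list of other intermediate filament genes after CB-6644 in EV cells of AsPC-1 (log2 fold change 1.65) and T3M-4 (1.87), and in T84 (1.5), A375 (0.89), H1048 (0.64) and RH30 (1.03). Of all genes tested, 47.2%, 19.1%, 47.2%, 51.5%, 53.9% and 50.4% were called higher in those comparisons, in that order. LMNB1, a nuclear lamin, had the largest fall in T3M-4 EV cells (-0.53), T84 (-0.65) and A375 (-1.32), where 15.2%, 24.2% and 29.7% of all genes were called lower. VIM, vimentin, the filament of mesenchymal cells, had the largest rise in BxPC-3 sgKLF5 (2.01 in experiment 1 and 0.70 in experiment 2) and T3M-4 sgKLF5 experiment 2 (1.05), and the largest fall in BxPC-3 sgRUVBL1 (-0.88) and sgRUVBL2 (-0.66).

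Of the linker proteins that tie keratins to desmosomes and hemidesmosomes, 8 of 12 tested fell and 0 rose in BxPC-3 sgKLF5 of experiment 1, 7 fell and 1 rose in experiment 2, and 7 of 11 fell in CFPAC-1 sgKLF5, beside 8.1%, 13.6% and 13% of all genes tested called lower. PKP1, a desmosomal plakophilin, had the largest fall in BxPC-3 experiment 1 (-2.13), EPPK1, epiplakin, in experiment 2 (-1.41) and PLEC, plectin, in CFPAC-1 (-1.20). Of 17 genes of simple epithelium, 12 rose and 1 fell in T3M-4 in each of sgRUVBL1 and sgRUVBL2, where 45.9% and 39.3% of all genes rose, led by the surface mucin MUC1 (2.13 and 2.06). In CFPAC-1, MUC1 had the largest fall of the list in sgRUVBL1 (-1.65) and sgRUVBL2 (-2.23), and in AsPC-1 experiment 3 it fell too (-1.49 in sgRUVBL1 and -1.38 in sgRUVBL2). The difference between lines was not tested.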
